A study of Arabidopsis thaliana with 26 samples.

Results

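Indole glucosinolates are sulfur-containing defence compounds that Arabidopsis makes from tryptophan. The 10 genes described here were taken by their locus identifiers, out of the 33977 gene identifiers in the count tables. They are MYB34, MYB51 and MYB122, which encode the R2R3 MYB transcription factors that switch the pathway on, CYP79B2, CYP79B3, CYP83B1, SUR1 and SOT16, which encode enzymes of the core structure, CYP81F2, whose enzyme hydroxylates the indole ring, and PEN2, an atypical myrosinase that breaks the compounds down during defence against fungi. Expression was measured by RNA sequencing of whole Arabidopsis thaliana Columbia-0 plants with their roots, 10 days old, grown on agar medium with 0 or 100 µM 5-azacytidine, a cytidine analogue that inhibits DNA methylation. The genotypes were wild type and an msh1 memory line, which derives from plants with suppressed MSH1, a nuclear gene whose protein acts in organelles. The 4 groups were untreated wild type (3 biological replicates), wild type on azacytidine (3), the untreated memory line (2) and the memory line on azacytidine (2), and each replicate was sequenced as 2 or 3 technical libraries. The comparisons ask how azacytidine changed these genes in each genotype, how the memory line differed from wild type, and whether the genotypes differed in their response.

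As background, the pathway begins when CYP79B2 and CYP79B3 turn tryptophan into indole-3-acetaldoxime, which is also a precursor of camalexin, an indole phytoalexin, and of some auxin. CYP83B1 oxidises the aldoxime, a sulfur donor is added, the C-S lyase SUR1 releases a thiohydroximate, the glucosyltransferase UGT74B1 adds glucose, and sulfotransferases such as SOT16 add sulfate. MYB34 is best known from roots and MYB51 from shoots, where MYB51 and CYP81F2 are also induced by microbial elicitors.

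The replicates held between 11412839 and 13544859 reads counted in genes, summed over technical libraries. Reads that aligned to more than 1 place made up 25.7% in memory-line replicate 2 and 6.49% to 13.6% in the other replicates. On the leading principal component of log2 CPM (counts relative to the scaled size of a library), which held 35.4% of the variance, wild-type replicate 3 lay at -26.9 and the other wild-type replicates at -48.5 and -50.2. Memory-line replicates 1 and 2 lay at -15.5 and -38.5. Both organs of the label were present, since all 16 root marker genes and all 10 leaf and shoot marker genes had counts in every group. The summed level of the root markers was 124 to 156 CPM in wild type, 106 to 112 CPM in treated wild type, 120 to 127 CPM in the memory line and 105 to 108 CPM in the treated memory line. The summed level of the leaf and shoot markers was 29810 to 41260 CPM in wild type and 32150 to 34350 CPM in treated wild type. The replicates stood farther apart in the memory line (21420 and 39810 CPM) and in the treated memory line (17930 and 37580 CPM). Technical libraries of a replicate mostly differed little for these genes. Over 90 pairs of gene and replicate, MYB122 left out, the ratio of highest to lowest library had a median of 1.099 and reached 1.51. For CYP79B2 the libraries of wild-type replicate 3 had 43.1 and 61.7 CPM, and those of treated wild-type replicate 2 reached 43.7 CPM. Over all well-counted genes, chi-square per degree of freedom between libraries was 2.02 and 2.20 in wild-type replicates 2 and 3, and 1.252 to 1.303 elsewhere.

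In untreated wild type, on the scale of CPM per kilobase of exon, 4 of the enzyme genes stood highest. CYP83B1 had a level of 74.6 ± 16.0 (SD, n = 3) and PEN2 one of 71.5 ± 8.49. SOT16 followed at 53.1 ± 4.67 and SUR1 at 50.7 ± 4.95. A lower tier held the entry enzymes and their activators, with CYP79B2 at 24.4 ± 3.95, CYP79B3 at 23.9 ± 4.99, MYB34 at 22.8 ± 2.27 and MYB51 at 21.5 ± 10.8. CYP81F2 was at 14.9 ± 5.22. Neighbours in this order lay within their SDs of each other, except for the steps from PEN2 to SOT16, from SUR1 to CYP79B2 and from CYP81F2 to MYB122. MYB122 stood at 0.413 ± 0.317. Over all 4 groups it rested on 1 to 14 counts per replicate, so changes of this gene could not be resolved at this depth. Reads of close relatives could be told apart in coding sequence. CYP79B2 and CYP79B3 were 80.8% identical over their aligned coding sequences, SOT16 and its aliphatic relative SOT18 80.5%, and MYB51 and MYB122 77.2%. The longest exact run shared by any of these pairs was 32 bases, shorter than the reads of 100 bases. None of the exons of the 10 genes lay under an annotated antisense exon, which matters because the library kit does not keep the strand.

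**Figure D1:**
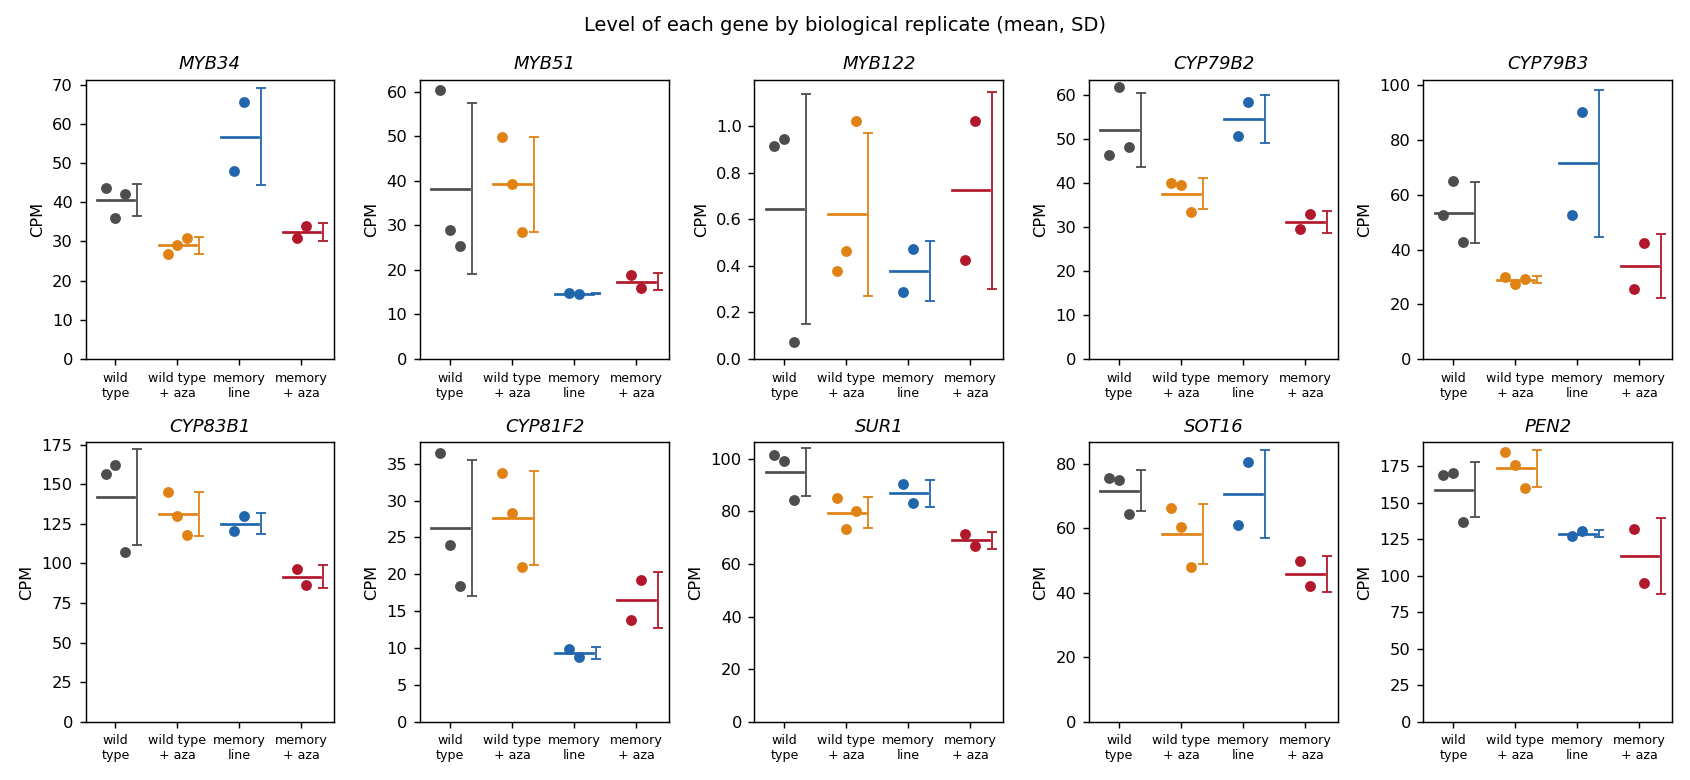
Level of each of the 10 genes in CPM, with a point per biological replicate, a line at the group mean and a bar of 1 SD (3 replicates in each wild-type group, 2 in each memory-line group; aza is azacytidine; each vertical axis starts at 0). MYB34, CYP79B2 and CYP79B3 lie lower on azacytidine in both genotypes, whereas MYB51, CYP81F2 and PEN2 lie lower in the memory line.

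On azacytidine the regulator gene MYB34 and the genes of the entry step were lower. Averaged over both genotypes, MYB34 fell to 0.640 of its untreated level, CYP79B2 to 0.643, CYP79B3 to 0.510 and the sulfotransferase gene SOT16 to 0.726. No member was called as higher. These 4 of 10 genes compare with 4.5% of the 22031 genes tested that were called in either direction and 2.47% that fell. This averaged comparison, which combines the tests within each genotype, was added after the data had been seen. The members were also chosen with earlier results of these data known, so the shares are a description and not a test. As these are bulk samples, fewer cells of a type and less RNA per cell cannot be told apart.

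MYB34 (AT5G60890, chr5:24494291-24496371, plus strand) had 43.6, 36.0 and 42.1 CPM in the wild-type replicates and 26.8, 29.1 and 31.0 CPM in the treated ones. Each treated replicate lay below each untreated one. The memory line had 47.9 and 65.5 CPM without azacytidine and 30.8 and 34.0 CPM with it, again without overlap. For wild type the log2 fold change was -0.48 (SE 0.13, edgeR adjusted p = 0.0491), and for the memory line -0.81 (SE 0.16, adjusted p = 0.0383). Averaged over the genotypes it was -0.64 (SE 0.11, adjusted p = 0.00342).

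CYP79B2 (AT4G39950, chr4:18525042-18527602, plus strand) had 46.3, 61.8 and 48.2 CPM in wild type and 39.9, 39.4 and 33.4 CPM in treated wild type. Memory-line values went from 50.7 and 58.4 CPM to 29.4 and 33.0 CPM. Treated replicates lay below untreated ones in both genotypes. For wild type the log2 fold change was -0.47 (SE 0.13, adjusted p = 0.0534), just outside the threshold of 0.05. For the memory line it was -0.80 (SE 0.17, adjusted p = 0.0403). The average over the genotypes was -0.64 (SE 0.11, adjusted p = 0.00371).

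CYP79B3 (AT2G22330, chr2:9488413-9491404, plus strand), the paralogue that encodes the same activity, had 52.7, 65.0 and 42.7 CPM in wild type and 30.2, 27.5 and 29.3 CPM in treated wild type. The memory-line values were 52.5 and 90.4 CPM untreated, 25.8 and 42.4 CPM treated. The groups did not overlap in either genotype, but the untreated memory-line replicates stood far apart. The wild-type log2 fold change was -0.88 (SE 0.24, adjusted p = 0.0541), and that of the memory line -1.06 (SE 0.29, adjusted p = 0.197). The average was -0.97 (SE 0.19, adjusted p = 0.0161). Within a replicate, the ratio of CYP79B2 to CYP79B3 per kilobase was 0.921 to 1.18 in untreated wild-type replicates and 1.20 to 1.504 in treated ones. The memory line had ratios of 0.677 and 1.01 untreated and 0.816 and 1.20 treated, which overlap.

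SOT16 (AT1G74100, chr1:27864345-27865694, minus strand) had 75.5, 75.0 and 64.3 CPM in wild type, and 66.3, 60.2 and 47.9 CPM in treated wild type, so that the groups overlapped. Memory-line replicates had 61.0 and 80.3 CPM untreated and 49.8 and 41.9 CPM treated, without overlap. Its wild-type log2 fold change was -0.30 (SE 0.15, adjusted p = 0.231), that of the memory line -0.62 (SE 0.18, adjusted p = 0.205), and the average -0.46 (SE 0.12, adjusted p = 0.0409).

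CYP83B1 and SUR1, the enzymes between these steps, were not called by edgeR, though both leaned lower. CYP83B1 (AT4G31500) had 156, 162 and 107 CPM in wild type, 145, 130 and 118 CPM in treated wild type, 121 and 130 CPM in the memory line and 96.8 and 86.4 CPM in the treated memory line. SUR1 (AT2G20610) had 101, 99.3 and 84.4 CPM, then 85.0, 73.1 and 80.3 CPM, then 90.6 and 83.3 CPM, and finally 71.2 and 66.7 CPM in the same order of groups. Both genes overlapped between the wild-type groups and lay without overlap below the untreated replicates in the treated memory line. The averaged log2 fold changes were -0.28 (SE 0.12, adjusted p = 0.203) for CYP83B1 and -0.30 (SE 0.09, adjusted p = 0.0846) for SUR1. Their approximate 95% intervals, -0.52 to -0.04 and -0.475 to -0.12, lay below 0, with unadjusted edgeR p of 0.0379 and 0.00619. In this average DESeq2 called 5 members and limma voom 6, and 7 had an unadjusted edgeR p under 0.05.

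The remaining members did not share the lower level. MYB51 had an averaged azacytidine log2 fold change of 0.14 (SE 0.27, adjusted p = 0.815), CYP81F2 one of 0.45 (SE 0.20, adjusted p = 0.233) and PEN2 one of -0.03 (SE 0.11, adjusted p = 0.918). In the memory line, both treated replicates of CYP81F2 lay above both untreated ones, with a log2 fold change of 0.83 (SE 0.32, adjusted p = 0.466).

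Counted within each genotype, 1 of the 10 genes was called in wild type (MYB34), where 6.39% of all tested genes were. In the memory line 2 were called (MYB34 and CYP79B2), where 0.74% of all tested genes were. MYB34, CYP79B2 and CYP79B3 were the 3 members whose treated replicates lay below the untreated ones without overlap in both genotypes, a pattern held by 4.61% of all tested genes. Of the 10 genes, 7 had a log2 fold change below 0 in wild type, with a median over the members of -0.18, and 7 in the memory line, with a median of -0.39. Over all tested genes 49.8% and 48% were below 0, with medians of 0.00 and 0.01. None of the 10 genes was called for a difference between the azacytidine responses of the genotypes, where 0.0182% of all tested genes were. The count was 0 also at an unadjusted p under 0.05, with DESeq2 and with limma voom. For MYB34 the difference (memory line minus wild type) was -0.32 on the log2 scale, with an approximate 95% interval of -0.74 to 0.09. Responses alike or moderately larger in the memory line both lay within this interval.

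The calls within a genotype were close to the threshold. Over fits that each left out 1 of the 10 replicates, MYB34 in wild type was called in 2 (those without a memory-line replicate) and its adjusted p ranged up to 0.179 over all alternatives. In the memory line, MYB34 and CYP79B2 were each called in 4 of 10 such fits, and lost without any of the 3 treated wild-type replicates, memory-line replicate 2 or either treated memory-line replicate. The averaged calls held better: MYB34 and CYP79B2 were called in all 20 alternatives and CYP79B3 in 19, the exception being the fit without treated memory-line replicate 1 (adjusted p = 0.0503). SOT16 was called in 12 of the 20, and with 1 replicate left out only without wild-type replicate 3, treated wild-type replicate 1 or memory-line replicate 1 (highest adjusted p = 0.155). Without wild-type replicate 3 and memory-line replicate 2 together, which stood apart, 3 members were called in wild type (MYB34, CYP79B2 and CYP79B3), 0 in the memory line and 4 on average (SUR1 in place of SOT16).

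**Figure D2:**
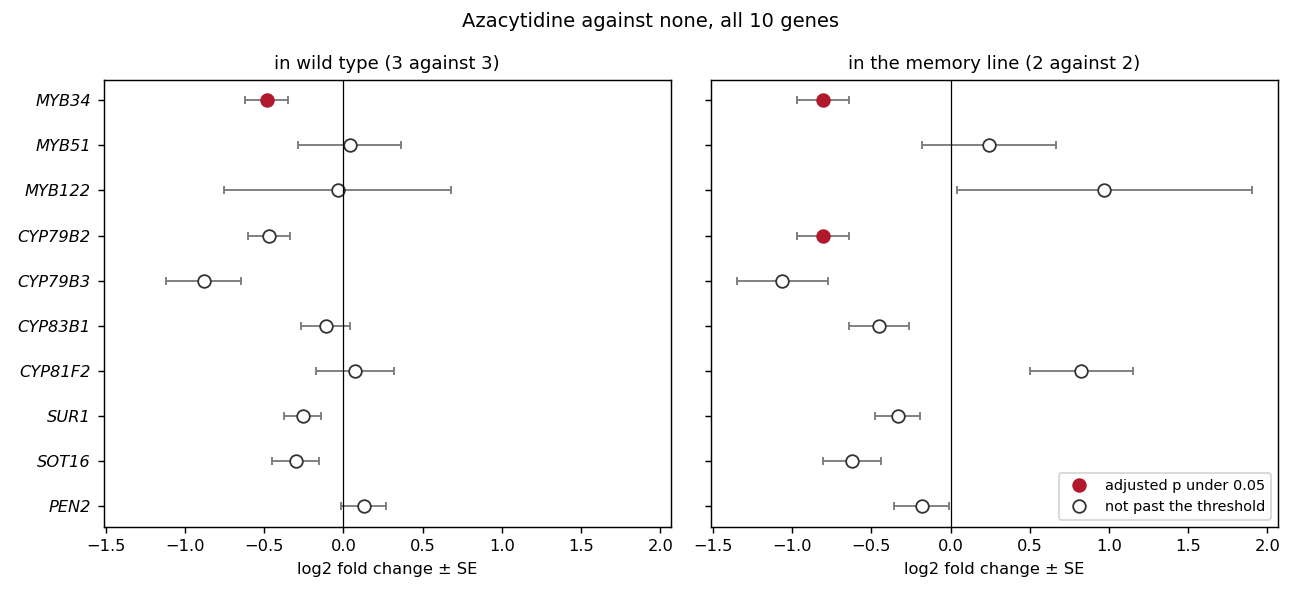
Log2 fold change of azacytidine against none for each gene, with bars of 1 SE, in wild type (left) and in the memory line (right); filled points passed an adjusted p under 0.05. MYB34 is filled in both genotypes and CYP79B2 in the memory line, while CYP79B3 has the lowest value in both.

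The 300-base windows around the gene starts of CYP79B2 and CYP79B3, which fell together, are printed because each holds ACCAAC, a core that many plant R2R3 MYB proteins bind. Each window runs from 250 bases before the annotated start to the first 50 bases of the gene, read 5′ to 3′ on the gene's strand from the RefSeq TAIR10.1 genome. Capitals mark matches, and GTTGGT is the same motif on the opposite strand.
CYP79B2, chr4:18524792-18525091, plus strand: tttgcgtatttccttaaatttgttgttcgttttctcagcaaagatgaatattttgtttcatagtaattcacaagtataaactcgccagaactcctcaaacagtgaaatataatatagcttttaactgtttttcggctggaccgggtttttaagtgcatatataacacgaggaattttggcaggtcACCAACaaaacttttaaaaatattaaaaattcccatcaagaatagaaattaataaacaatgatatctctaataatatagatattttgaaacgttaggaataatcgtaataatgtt
CYP79B3, chr2:9488163-9488462, plus strand: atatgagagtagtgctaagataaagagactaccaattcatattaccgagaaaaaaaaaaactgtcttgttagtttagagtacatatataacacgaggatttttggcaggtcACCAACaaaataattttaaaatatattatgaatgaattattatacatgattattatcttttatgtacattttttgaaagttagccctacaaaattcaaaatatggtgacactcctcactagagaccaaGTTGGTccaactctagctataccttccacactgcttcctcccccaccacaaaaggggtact
In CYP79B2 the match began 65 bases before the start, and in CYP79B3 the matches began 139 and 11 bases before it. Searched on both strands, ACCAAC occurred in 5 of the 10 windows (also in CYP83B1, CYP81F2 and SOT16) and in 13.8% of 27443 windows over all genes of the annotation. The G-box CACGTG, bound by factors of the bHLH class, occurred in 2 of the 10 windows (MYB122 and SUR1) and in 7.68% of all windows. The W-box TTGACC or TTGACT, bound by WRKY factors, occurred in 3 of the 10 (CYP81F2, SUR1 and PEN2) and in 32.4% of all. No matches overlapped each other, and the windows of MYB34 and MYB51 held none of these letters.

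The memory line had less RNA of the regulator MYB51, of CYP81F2 and of PEN2. Averaged over both treatments, MYB51 fell to 0.412 of its wild-type level, CYP81F2 to 0.462 and PEN2 to 0.727. These 3 of 10 genes compare with 2.91% of all tested genes that were called in either direction and 1.27% that fell. This average, too, was added after the data had been seen. Its shares are likewise a description, since the members were chosen with earlier results of these data known. Within the untreated plants CYP81F2 alone was called, and within the treated plants no member was.

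MYB51 (AT1G18570, chr1:6389399-6391386, plus strand) had 60.4, 29.0 and 25.4 CPM in wild type and 14.8 and 14.6 CPM in the memory line. On azacytidine it had 49.9, 39.4 and 28.5 CPM in wild type and 18.8 and 16.0 CPM in the memory line. The memory-line replicates lay below all wild-type replicates in both media, and wild-type replicate 1 stood far above the other untreated ones. The log2 fold change was -1.38 (SE 0.39, adjusted p = 0.139) without and -1.18 (SE 0.38, adjusted p = 0.294) with azacytidine. The average was -1.28 (SE 0.27, adjusted p = 0.0475).

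CYP81F2 (AT5G57220, chr5:23187840-23189902, plus strand) had 36.5, 24.0 and 18.5 CPM in wild type and 9.90 and 8.74 CPM in the memory line. On azacytidine it had 33.7, 28.3 and 21.0 CPM in wild type and 13.9 and 19.2 CPM in the memory line. The genotypes did not overlap in either medium, though the treated gap was narrow, from 19.2 to 21.0 CPM. The log2 fold change was -1.49 (SE 0.30, adjusted p = 0.0420) without and -0.74 (SE 0.28, adjusted p = 0.344) with azacytidine. The average was -1.12 (SE 0.21, adjusted p = 0.0207).

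PEN2 (AT2G44490, chr2:18364652-18367835, plus strand) had 169, 170 and 137 CPM in wild type and 127 and 130 CPM in the memory line. On azacytidine it had 185, 176 and 160 CPM in wild type and 132 and 94.98 CPM in the memory line. Again no memory-line replicate reached a wild-type one on the same medium. The log2 fold change was -0.30 (SE 0.16, adjusted p = 0.388) without and -0.62 (SE 0.16, adjusted p = 0.172) with azacytidine, and -0.46 (SE 0.11, adjusted p = 0.0475) averaged.

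None of the 4 members that fell on azacytidine was called by edgeR between the genotypes, while limma voom called MYB34 in untreated plants and in the average over both treatments. In untreated plants MYB34 was 0.48 log2 units higher in the memory line (SE 0.15, adjusted p = 0.129), with both memory-line replicates above the 3 wild-type ones. CYP79B2 differed by 0.07 (SE 0.15, adjusted p = 0.884), with an approximate 95% interval of -0.22 to 0.36. CYP79B3 differed by 0.42 (SE 0.26, adjusted p = 0.488) and SOT16 by -0.02 (SE 0.16, adjusted p = 0.974). On azacytidine the log2 fold change of MYB34 was 0.16 (SE 0.15, adjusted p = 0.711) and that of CYP79B3 0.24 (SE 0.27, adjusted p = 0.767), both with overlap. CYP79B2 had -0.27 (SE 0.15, adjusted p = 0.513), its memory-line replicates below wild type without overlap, and SOT16 had -0.34 (SE 0.17, adjusted p = 0.442), with overlap. In treated plants CYP83B1 had a log2 fold change of -0.52 (SE 0.18, adjusted p = 0.269), without overlap between the genotypes.

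In untreated plants 1 of the 10 genes was called, where 1.17% of all tested genes were, and the median log2 fold change was -0.15 for the members and 0.00 for all tested genes. On azacytidine 0 of the 10 were called by edgeR, where 0.0454% of all tested genes were, while 4 had an unadjusted p under 0.05. DESeq2 called 2 (MYB51 and PEN2) and limma voom 3 (MYB51, CYP83B1 and PEN2). Over all genes limma voom called 949 in this comparison, against 10 by edgeR. The median there was -0.31 for the members and 0.01 for all tested genes. MYB51, CYP81F2 and PEN2 were the 3 members whose memory-line replicates lay below wild type without overlap in both media, a pattern held by 3.74% of all tested genes. The CYP81F2 call in untreated plants was lost without wild-type replicate 1 or 2, treated wild-type replicate 2 or either memory-line replicate, with an adjusted p of up to 0.232 over all alternatives. Of the averaged calls, CYP81F2 was called in 16 of 20 alternatives, PEN2 in 11 and MYB51 in 10, and the highest adjusted p was 0.0861, 0.190 and 0.205, respectively. With 1 replicate left out, CYP81F2 was lost without treated wild-type replicate 2, memory-line replicate 2 or either treated memory-line replicate. PEN2 was kept in 2 of 10 such fits (without wild-type replicate 3 or treated memory-line replicate 1) and MYB51 in 3 (without wild-type replicate 1 or 3 or treated wild-type replicate 3). Without wild-type replicate 3 and memory-line replicate 2 together, 0 members were called in untreated plants and 3 on average (CYP83B1 in place of MYB51).

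**Figure D3:**
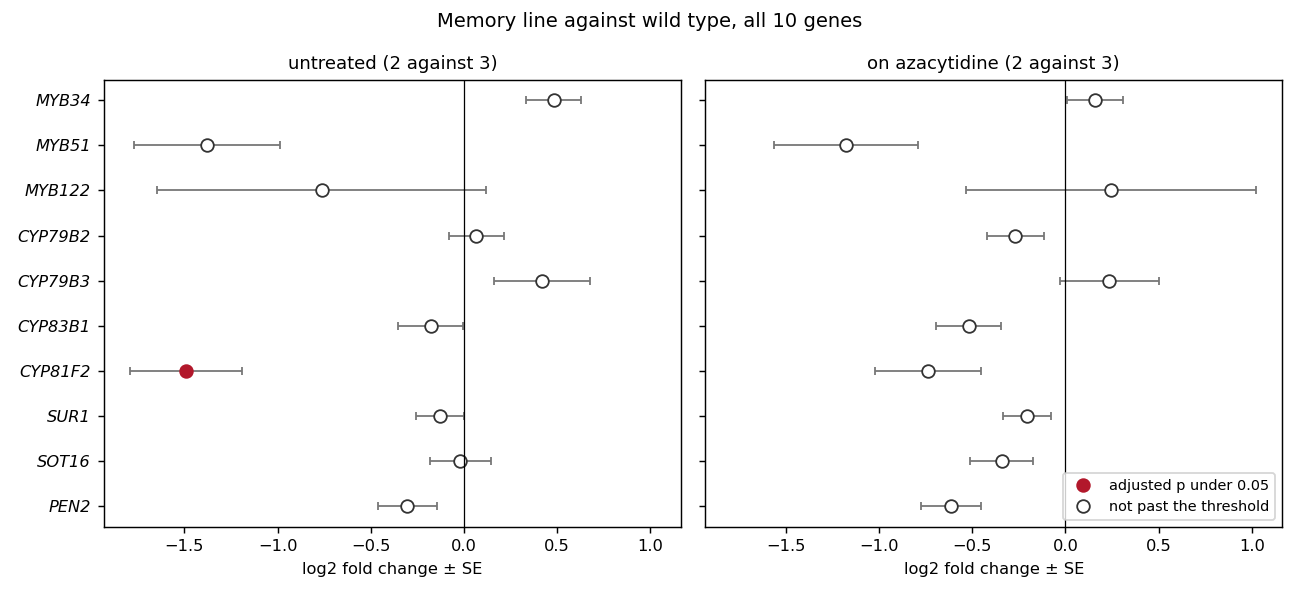
Log2 fold change of the memory line against wild type for each gene, with bars of 1 SE, in untreated plants (left) and on azacytidine (right); filled points passed an adjusted p under 0.05. CYP81F2 is filled in untreated plants, and MYB51 and CYP81F2 lie farthest to the left in both panels.

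The windows of CYP81F2 and PEN2 are printed because both hold the W-box letters, here in capitals together with ACCAAC. The opposite-strand forms of the W-box are GGTCAA and AGTCAA. These letters do not set CYP81F2 and PEN2 apart: they occurred in 3 of the 10 members, SUR1 included, and in 32.4% of all windows. The window of MYB51 held none.
CYP81F2, chr5:23187590-23187889, plus strand: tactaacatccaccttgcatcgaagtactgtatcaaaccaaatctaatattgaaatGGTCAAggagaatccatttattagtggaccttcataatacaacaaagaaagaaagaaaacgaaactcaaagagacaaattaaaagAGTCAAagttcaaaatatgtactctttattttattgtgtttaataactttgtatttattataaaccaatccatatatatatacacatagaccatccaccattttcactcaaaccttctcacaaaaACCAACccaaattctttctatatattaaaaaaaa
PEN2, chr2:18364402-18364701, plus strand: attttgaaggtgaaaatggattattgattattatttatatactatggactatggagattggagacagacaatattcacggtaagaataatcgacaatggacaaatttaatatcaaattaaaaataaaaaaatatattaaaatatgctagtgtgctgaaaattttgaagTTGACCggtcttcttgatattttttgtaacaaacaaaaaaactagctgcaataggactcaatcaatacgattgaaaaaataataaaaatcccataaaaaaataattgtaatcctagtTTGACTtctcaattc
The W-box matches of CYP81F2 began 194 and 109 bases before the start, and a match of PEN2 began 82 bases before it. The other PEN2 match and the ACCAAC of CYP81F2 lay inside the first 50 bases of the gene.

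The balance between both main regulators differed among groups. Per kilobase, the ratio of MYB34 to MYB51 was 0.725, 1.25 and 1.66 in the untreated wild-type replicates and 0.540, 0.744 and 1.09 in the treated ones. The memory line had ratios of 3.26 and 4.52 untreated and 1.65 and 2.14 treated. Both untreated memory-line replicates lay above all others, and the treated memory line lay above treated wild type without overlap but met the range of untreated wild type. This ratio was chosen after the values had been seen and has no test.

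**Figure D4:**
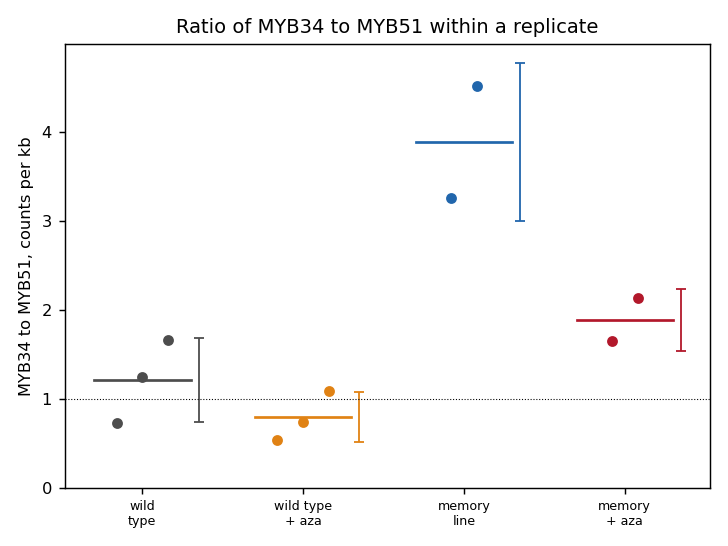
Ratio of MYB34 to MYB51, in counts per kilobase, with a point per biological replicate, a line at the group mean and a bar of 1 SD; the dotted line marks equal levels. The memory line reaches 3.26 and 4.52, and the wild-type replicates, treated or not, lie between 0.540 and 1.66.

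Across the 10 replicates the members formed sets that varied together, described here by Pearson correlations of log2 CPM (n = 10 replicates, which share groups and depth, so no p is given). MYB34 followed CYP79B3 (r = 0.870) and CYP79B2 (0.679), and CYP79B2 followed CYP79B3 (0.844) and SOT16 (0.857). MYB51 followed CYP81F2 (0.922) and PEN2 (0.823). CYP83B1 followed SUR1 (0.820), PEN2 (0.818) and SOT16 (0.814). MYB34 and MYB51 ran against each other (-0.455), as did MYB34 and CYP81F2 (-0.636). The mean profile of all members, MYB122 included, was nearest to CYP83B1 (0.947), SUR1 (0.886) and SOT16 (0.869). It was far from MYB122 (0.196), MYB34 (0.319) and CYP81F2 (0.381). Each member is itself part of that mean, which raises its correlation with it. The 10 tested genes outside the members most like that mean had r from 0.941 to 0.986, and 1 of them has a symbol in the reference, the nicotinate transporter gene NiaP (AT3G13050, 0.941). AT1G62422 was nearest (0.986). None of these 10 belongs to a list used here. By the same measure, added after the data had been seen, CRK14, a cysteine-rich receptor-like kinase gene, was nearest to MYB51 (0.987) and MLP329, a gene of the MLP family, to MYB34 (0.973).

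Single genes that supply the pathway were lower on azacytidine as well. APK1 and APK2, which encode kinases that make the sulfate donor of the sulfotransferases, fell in both genotypes, 2 of 3 genes in the list of sulfate activation and glutathione. APK2 had 58.6, 80.8 and 58.4 CPM in wild type, 38.4, 36.1 and 32.7 CPM in treated wild type, 59.3 and 61.8 CPM in the memory line and 23.3 and 27.1 CPM in the treated memory line. The wild-type log2 fold change of APK2 was -0.88 (SE 0.14, adjusted p = 0.00278), that of the memory line -1.26 (SE 0.17, adjusted p = 0.00287), both without overlap. APK1 had -0.43 (adjusted p = 0.0302) and -0.78 (adjusted p = 0.0114). APK2 lies next to CYP79B2, on the same strand and 3436 bases away with no coding gene between.

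Of 4 genes in a list of other core steps, UGT74B1 fell in both genotypes. It had 66.5, 75.3 and 62.4 CPM in wild type and 39.5, 37.5 and 44.0 CPM in treated wild type. In memory-line plants it went from 58.7 and 61.6 CPM to 40.0 and 34.9 CPM. Its log2 fold change was -0.75 (SE 0.12, adjusted p = 0.00241) and -0.68 (SE 0.14, adjusted p = 0.0434), without overlap in either. The medians of this list were -0.11 in wild type and -0.29 in the memory line.

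Of 11 tryptophan biosynthesis genes 1 was called on azacytidine, ASA1, whose enzyme, an anthranilate synthase subunit, commits chorismate to tryptophan. ASA1 had 109, 97.1 and 70.5 CPM in wild type, 43.0, 46.3 and 46.5 CPM in treated wild type, 57.2 and 44.9 CPM in the memory line and 36.6 and 42.2 CPM in the treated memory line. It fell on azacytidine in wild type (-1.03, SE 0.15, adjusted p = 0.00217) and was lower in the untreated memory line than in wild type (-0.85, SE 0.18, adjusted p = 0.0356). Both comparisons share the wild-type replicates. In the memory line the azacytidine log2 fold change of ASA1 was -0.37 (SE 0.19, adjusted p = 0.606). No gene of this list was called there by edgeR, DESeq2 or limma voom, and 0 had an unadjusted p under 0.05. The list median was 0.04 on azacytidine in wild type and 0.11 in the memory line. It was -0.21 for the untreated memory line against wild type.

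Of 8 genes that modify the indole ring, IGMT5, a methyltransferase gene, fell on azacytidine in the memory line (-0.98, SE 0.18, adjusted p = 0.0217), from 77.5 and 84.5 CPM to 38.2 and 44.1 CPM. In wild type its log2 fold change was -0.20 (SE 0.15, adjusted p = 0.429). The genotypes' responses differed by -0.77 (SE 0.23, adjusted p = 0.431), which did not pass. CYP81F4, a relative of CYP81F2, was higher in the untreated memory line than in wild type (0.92, SE 0.18, adjusted p = 0.0312), with 193 and 275 CPM against 102, 133 and 134 CPM. Antisense exons cover 88.2% of CYP81F4, so its reads cannot be assigned to a strand.

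Among 5 other regulators, MYC2, a bHLH factor of jasmonate signalling that acts with the MYB proteins, fell on azacytidine in both genotypes. The log2 fold change was -1.49 for wild type (SE 0.17, adjusted p = 0.000331) and -1.04 for the memory line (SE 0.20, adjusted p = 0.0331). Its levels were 84.8, 116 and 76.3 CPM against 32.6, 37.3 and 28.9 CPM, and 62.5 and 65.5 CPM against 35.5 and 26.9 CPM. Antisense exons cover 98.5% of MYC2. OBP2, a DOF transcription factor gene, rose on azacytidine in wild type (0.56, SE 0.16, adjusted p = 0.0489), from 18.9, 23.0 and 15.2 CPM to 25.3, 28.6 and 30.2 CPM. In memory-line plants it had 26.2 and 32.6 CPM untreated and 20.7 and 20.5 CPM treated, lower without overlap, with a log2 fold change of -0.51 (SE 0.19, adjusted p = 0.395). The genotypes' responses differed by -1.07 (SE 0.25, adjusted p = 0.343), which did not pass.

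Of 18 genes for breakdown and transport, ESM1, whose product favours isothiocyanates over nitriles, rose on azacytidine in wild type (1.14, SE 0.17, adjusted p = 0.00189), and the classical myrosinase gene TGG1 fell (-0.72, SE 0.19, adjusted p = 0.0439). None was called in the memory line by edgeR, where 9 had an unadjusted p under 0.05, DESeq2 called 1 and limma voom 7, and the median was -0.48. NSP1, a nitrile specifier gene, was higher in the untreated memory line than in wild type (0.77, SE 0.15, adjusted p = 0.0329), with 268 and 301 CPM against 167, 173 and 162 CPM. None of 6 genes of camalexin and related indoles was called in any of these comparisons by edgeR, while at most 2 had an unadjusted p under 0.05 and DESeq2 and limma voom called at most 2. The list median was -0.63 on azacytidine in wild type, with 6 of 6 genes below 0, and 1.22 in the memory line, with 5 of 6 above 0. It was -1.68 for the untreated memory line against wild type, with 6 of 6 below 0, and -0.09 on azacytidine. Over all tested genes 49.8% were below 0 on azacytidine in wild type and 48% in the memory line. Untreated wild-type replicates stood far apart for some of these genes, from 8.97 to 51.8 CPM for CYP71A12 and 2.99 to 52.0 CPM for CYP82C2. For CYP71A13 they were closer, from 9.71 to 22.4 CPM. These medians are therefore only a description.

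In the aliphatic pathway, which starts from methionine, 6 of 17 tested genes fell on azacytidine in wild type (median -0.55). The farthest were GSTF11 (-1.59, adjusted p = 0.00476), which antisense exons cover in full, the regulator MYB29 (-1.20, adjusted p = 0.0123), FMOGS-OX1 (-1.12, adjusted p = 0.0158) and the transporter gene BASS5 (-0.90, adjusted p = 0.0145). None was called in the memory line by edgeR, where 7 had an unadjusted p under 0.05 and DESeq2 and limma voom each called 2. For the untreated memory line against wild type none was called by edgeR, while 11 had an unadjusted p under 0.05, DESeq2 called 6 and limma voom 9, and the median was -0.62. In the averages, 7 of the 17 fell on azacytidine (median -0.50), and 3 fell in the memory line (CYP79F1, MAM1 and SOT17; median -0.55).

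Some root markers were lower on azacytidine as well. Of 15 tested, 5 fell in wild type, among them CASP2 (-1.40, adjusted p = 0.00752), CASP4 (-1.24, adjusted p = 0.0205), PER64 (-1.16, adjusted p = 0.0118) and CASP1 (-1.005, adjusted p = 0.00822), all of the Casparian strip, the barrier in the root endodermis. Others went the other way: 3 of the 15 had a log2 fold change above 0 in wild type (up to 0.80) and 6 in the memory line (up to 0.56). SCR, for example, had a mean of 30.6 CPM in wild type and 37.8 CPM in treated wild type. The list median of the root markers was -0.61 in wild type and -0.57 in the memory line. There edgeR called none, 7 had an unadjusted p under 0.05, and DESeq2 and limma voom each called 1. Their part in the lower levels of MYB34, CYP79B2 and CYP79B3 was not tested. For the memory line against wild type, no root marker was called by edgeR, DESeq2 or limma voom in either medium, and 2 untreated and 0 treated had an unadjusted p under 0.05. Not all calls in these lists were firm. Of the 19 on azacytidine in wild type 8 held in all alternatives (UGT74B1, ASA1, APK2, MYC2, ESM1, GSTF11, SOT18 and CASP2). Of the 5 in the memory line APK2 alone did, while UGT74B1 was called in 7 of 21, and of the 3 for the untreated memory line 0 did. No leaf or shoot marker was called by edgeR or had an unadjusted p under 0.05 in these 4 comparisons. DESeq2 called 0 as well, and limma voom at most 3.

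**Figure D5:**
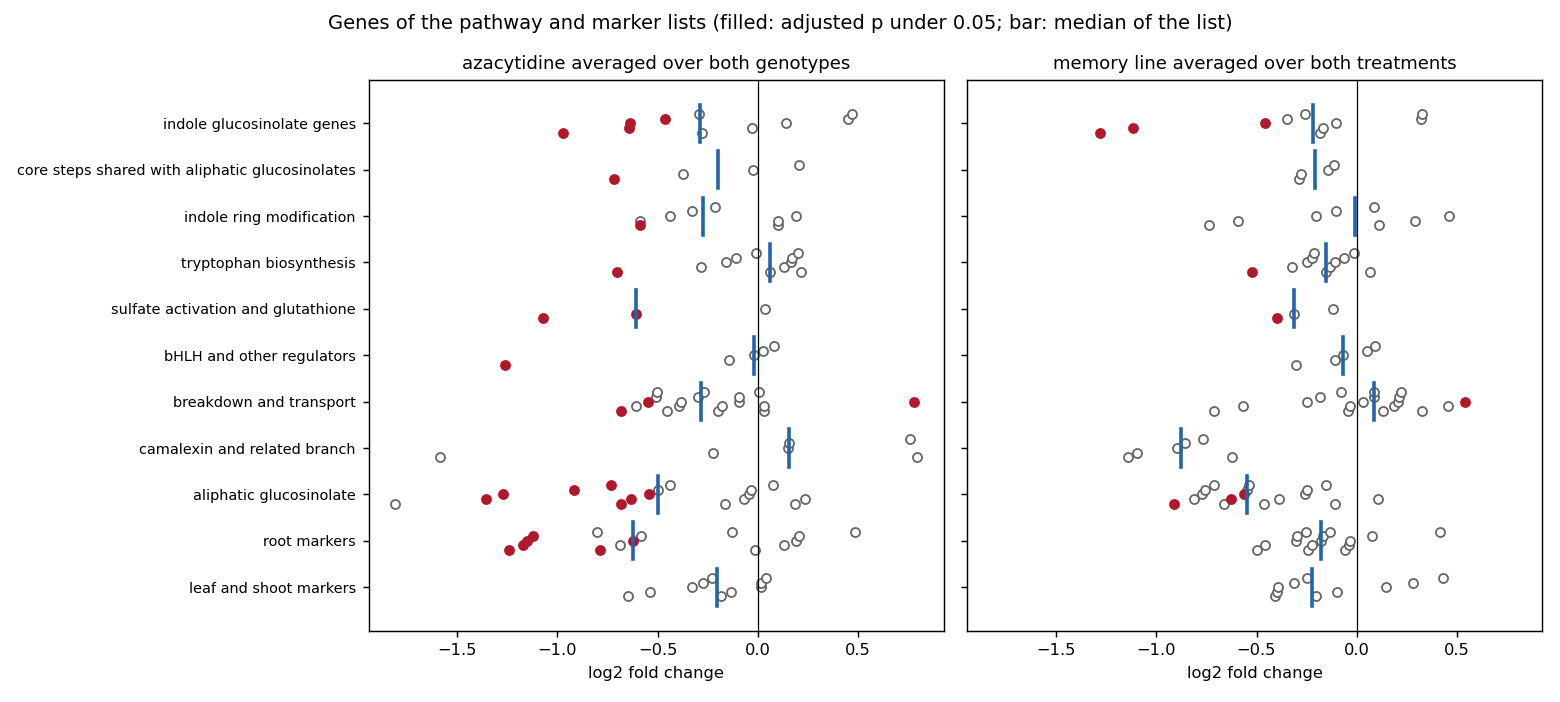
Log2 fold change of every tested gene in the pathway and marker lists, for azacytidine averaged over both genotypes (left) and the memory line averaged over both treatments (right); filled points passed an adjusted p under 0.05 and blue bars mark list medians. Calls on azacytidine include 4 indole glucosinolate genes, UGT74B1, both APK genes, 7 aliphatic glucosinolate genes and 6 root markers, and calls for the memory line include MYB51, CYP81F2, PEN2, 3 aliphatic glucosinolate genes, ASA1, APK1 and NSP1.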

How the data were processed

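The files deposited by the authors hold raw read counts per gene for 26 libraries from TruSeq RNA v2 kits, which keep no strand, sequenced with 100-base reads, per the labels' protocols. The submitters' processing notes name TAIR10 and DESeq2, while neither the aligner nor the counting program is given in these sources. The 5 entries that name no gene were left out: reads in no feature made up 48.3% to 49.3% and ambiguous reads at most 0.771% of uniquely aligned reads. Counts of technical libraries were summed into 10 biological replicates. The labels do not say whether these were grown separately, so p-values measure the spread between these samples.

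filterByExpr (minimum count 10, minimum total 15) dropped low genes and left 22031 genes, all 10 members among them. TMM scaling and 1 robust quasi-likelihood fit over all 4 groups were run in edgeR 4.0.16 (R 4.3.3), with Benjamini-Hochberg adjustment over all genes and calls at an adjusted p under 0.05. The fit had 6 residual degrees of freedom and was tested on simulated data. CPM values use the TMM-scaled library sizes, and correlations use log2 CPM with a prior count of 2. The share of all tested genes without overlap is given for both genotypes or both media together. For a single comparison it is not given, so lack of overlap there is only a description. An approximate 95% interval is the estimate ± 1.96 SE, which is somewhat too narrow at the few degrees of freedom of this fit. Alternatives used no filter, a filter of 5 CPM in 2 replicates, other scaling factors, DESeq2 1.42.0, limma 3.58.1 voom, technical library 1, the compared groups alone, a replicate block and leaving out replicates. Over all genes limma voom called more than edgeR in every comparison, so its counts in a list are not comparable with shares called by edgeR. The totals of DESeq2 over all genes are not given here. Named genes are all members, plus up to 4 called genes of each list and comparison with the largest changes. A few uncalled genes are named as examples of spread or direction. Members and lists were chosen with earlier results of these data known. Protein sequences were not used here, so the planned protein identities were not run and coding sequences were compared instead.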

Additional observations from a re-analysis of the deposited data

How the results depend on the processing

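Values that depended on the processing were mostly counts of calls near the threshold. The number of members called for azacytidine in wild type (1) became 2 with no filter, 0 with the stricter filter, 0 with upper quartile factors, 3 with DESeq2, 4 with limma voom, 2 with technical library 1 only and 3 in a fit of only the groups compared. For azacytidine in the memory line (2) it became 0 with the stricter filter, 3 with DESeq2, 4 with limma voom, 1 with technical library 1 only and 0 with only the groups compared. For the untreated memory line (1) it became 2 with DESeq2, 3 with limma voom and 0 with only the groups compared, and on azacytidine (0) it became 2 with DESeq2 and 3 with limma voom. The memory line averaged over treatments (3) became 5 with limma voom. Without wild-type replicate 3 and memory-line replicate 2 together, chosen after seeing the data, the counts were 3, 0, 0 and 0 in these 4 comparisons. With 1 replicate left out, a lone sample was assumed to vary like the other groups, and the counts ranged from 0 to 3, 0 to 3, 0 to 1 and 0 to 0. A fit of only the groups compared was not made for the averages or the difference between responses. With 1 replicate left out, the averages ranged from 2 to 6 for azacytidine and 0 to 4 for the memory line. The cause was not tested.

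Same-numbered replicates deviated from their group means with correlations of -0.12 to 0.145, and differently numbered ones with -0.167 to 0.163. In a group of 2 replicates the deviations mirror each other. These values therefore cannot decide whether a replicate number marks a shared batch, which the labels do not state. The replicate block gave 2, 1, 2 and 1 members called in the 4 comparisons, and 4 in each average. A block with crossed numbers in the treated memory line, added after seeing the data, gave 0, 1, 2 and 2.

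No called fold change of a member changed direction under any alternative. Uncalled log2 fold changes near 0 did. With technical library 1 only, MYB51 on azacytidine in wild type went to -0.14, CYP81F2 to -0.11, CYP79B2 in the untreated memory line to -0.13 and the SUR1 difference between responses to 0.013. MYB122 on azacytidine in wild type went to 0.033 with the block and 0.034 with the crossed block. Without both replicates named above, MYB51 on azacytidine in wild type went to -0.19, CYP79B2 and CYP79B3 in the untreated memory line to -0.091 and -0.16, and the CYP79B3 difference between responses to 0.40. With 1 replicate left out, log2 fold changes on azacytidine in wild type ranged from -0.18 to 0.53 (MYB51), -0.58 to 0.37 (MYB122) and -0.13 to 0.38 (CYP81F2), and in the memory line from -0.44 to 0.016 (PEN2). For the untreated memory line they ranged from -0.038 to 0.21 (CYP79B2), -0.024 to 0.75 (CYP79B3) and -0.23 to 0.16 (SOT16), and on azacytidine from -0.55 to 0.79 (MYB122) and -0.19 to 0.55 (CYP79B3). The differences between responses ranged from -0.29 to 0.41 (MYB51) and -0.61 to 0.26 (CYP79B3), and the averages from -0.15 to 0.075 (PEN2, azacytidine) and -0.65 to 0.014 (MYB122, memory line).

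Over all genes the calls ranged from 432 to 3603 (1408 as reported) and 91 to 644 (163) for azacytidine in wild type and the memory line, and from 32 to 1660 (258) and 1 to 949 (10) for the memory line without and with it. They ranged from 1 to 389 (4) for the difference between responses, and from 506 to 2790 (992) and 80 to 2261 (641) for the averages. The highest total in each comparison came from limma voom on the 26 libraries. Other scaling factors moved the median log2 fold change of all genes by under 0.1. Depth limits MYB122 most.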
